A study of Homo sapiens with 6 samples.

Results

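The mitotic machinery was examined in OVCAR8 cells, a long-established line from a human ovarian carcinoma, as 50 genes for the spindle, the kinetochore and the spindle checkpoint. The genes were given by name, and all 50 were found by symbol in the authors' merged count table, out of 58037 gene IDs counted in each library. Cells were kept without serum for 16 hours. They were then left untreated (3 libraries, numbered 2 to 4 in the labels) or given recombinant human relaxin-2, the peptide hormone RLN2, at 50 ng/mL for 8 hours (3 libraries, numbered 1 to 3). All libraries came from this 1 cell line, and nothing in the labels says whether the triplicates were cultured apart. The p-values therefore rest on the spread among these 6 libraries, and that spread may be technical only.

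Entry into mitosis is driven by the kinase CDK1 bound to cyclins A and B, and the Polo and Aurora kinases then build the bipolar spindle. Kinetochores tie chromosomes to spindle microtubules, and the checkpoint holds back the anaphase-promoting complex (APC/C), a ubiquitin ligase, until every chromosome is attached. Most of these genes are transcribed in G2 and mitosis and repressed in resting cells, through the cell cycle genes homology region (CHR), an element bound by the DREAM and MuvB complexes, often beside CCAAT boxes bound by NF-Y. Their mRNA levels are therefore widely used as a measure of proliferation in tumours. In bulk RNA, fewer cells in these phases and less RNA per cell cannot be told apart.

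Promoter sequences are shown first, since the elements in them are what the genes are known to share and the rule that chose the genes did not use them. RefSeq windows on GRCh38.p14, from 250 bases before to 50 after a gene's start, were matched by symbol for 43 of the 50 genes. AURKA, TTK, BIRC5, BUB3, UBE2C, CENPH and TPX2 had none. Both strands were searched for the CHR motifs TTTGAA and TTTAAA, the latter its own reverse complement, and for CCAAT. Where a gene had several windows, the one with the most matches was taken, a choice made after the windows of CDK1 were seen. The first window listed is given for comparison. TTTGAA was found for 30 of the 43 genes (69.8%), against 17.3% of all 27305 genes with a window. CCAAT was found for 35 (81.4%, against 38.9%), and at least 2 copies of CCAAT for 22 (51.2%, against 12.7%). A CHR motif together with CCAAT was held by 27 (62.8%, against 11% of all genes), and by 26 (60.5%, against 9.49%) in the first windows. None of the 43 lacked all 3 motifs, while 45.1% of all genes did. In the first windows 2 of the 43 lacked all 3, and 49.5% of all genes. The median log2 fold change after relaxin-2 was -0.09 for the 27 genes with both elements and -0.12 for the 16 others with a window. The 4 genes shown had the smallest p in the comparison of treated and untreated cells among those with both elements under either choice of window, 2 of them with the higher mean after relaxin-2 and 2 with the lower. Capitals mark matches on either strand, so that ATTGG is CCAAT and TTCAAA is TTTGAA read from the other strand. No 2 matches overlapped in these windows.
INCENP, chr11:62123761-62124060, plus strand: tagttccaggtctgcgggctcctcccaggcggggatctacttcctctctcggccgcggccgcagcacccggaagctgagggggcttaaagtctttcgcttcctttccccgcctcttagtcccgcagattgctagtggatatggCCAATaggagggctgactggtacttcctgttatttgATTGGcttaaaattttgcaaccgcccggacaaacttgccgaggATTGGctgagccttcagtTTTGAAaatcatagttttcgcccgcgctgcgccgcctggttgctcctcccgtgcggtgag
PLK1, chr16:23678639-23678938, plus strand: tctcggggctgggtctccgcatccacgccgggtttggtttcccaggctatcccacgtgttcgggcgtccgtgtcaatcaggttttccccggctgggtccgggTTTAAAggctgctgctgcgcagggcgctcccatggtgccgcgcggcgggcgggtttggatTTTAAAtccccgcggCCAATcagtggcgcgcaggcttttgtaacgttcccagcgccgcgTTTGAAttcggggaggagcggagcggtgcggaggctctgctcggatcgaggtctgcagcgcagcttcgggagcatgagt
MAD2L1, chr4:120066799-120067098, minus strand: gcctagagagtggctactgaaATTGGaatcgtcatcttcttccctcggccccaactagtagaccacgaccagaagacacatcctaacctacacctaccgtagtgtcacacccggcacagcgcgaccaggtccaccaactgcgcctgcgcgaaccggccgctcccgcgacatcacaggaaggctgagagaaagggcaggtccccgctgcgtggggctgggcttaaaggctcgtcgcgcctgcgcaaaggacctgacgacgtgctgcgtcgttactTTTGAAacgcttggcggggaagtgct
CDK1, chr10:60778228-60778527, plus strand: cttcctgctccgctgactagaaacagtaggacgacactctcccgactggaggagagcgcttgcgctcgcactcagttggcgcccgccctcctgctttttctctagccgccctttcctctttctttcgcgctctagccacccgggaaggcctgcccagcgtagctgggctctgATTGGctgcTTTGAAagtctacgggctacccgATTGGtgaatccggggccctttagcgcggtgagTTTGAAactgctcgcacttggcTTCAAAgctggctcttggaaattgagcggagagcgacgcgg
In CDK1, which held 3 matches to TTTGAA, the one nearest before the annotated start began 13 bases before it, and in INCENP 10 bases before it. In PLK1 it began 29 bases before the start, downstream of 1 CCAAT and 2 copies of TTTAAA. In MAD2L1 it lay 24 bases after the start. A match is a description of letters and not a measured binding site.

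The libraries held 11939148 to 22426768 reads assigned to genes, and the 50 genes had from 215 to 18049 reads in any library. Reads on no annotated exon of the counted strand made up 27.9% to 32.0% of the untreated and 17.5% to 25.8% of the relaxin-2 libraries. Relaxin-2 replicate 2 had 27.0% of its reads mapping to several places, against 5.31% to 6.19% in the others. The epithelial identity of the line was read from 9 markers. KRT7, KRT8 and KRT18 had group means from 198 to 1308 CPM (the count per gene scaled to library size) and the Müllerian factor PAX8 53.2 and 65.7 CPM. EPCAM had group means of 31.25 CPM untreated and 30.12 CPM treated, and WT1 2.98 and 3.35 CPM. The defining markers KRT19 and MUC16 were at or near 0, and CDH1 (E-cadherin) had group means of 0.910 and 0.987 CPM. The 4 leukocyte markers summed to at most 0.273 CPM, the 4 endothelial markers to at most 2.87 CPM and the 4 fibroblast markers to at most 18.7 CPM in any library. Of the fibroblast markers PDGFRB was the highest, with group means of 13.4 CPM untreated and 16.9 CPM treated, while DCN had no reads.

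All 50 genes passed the filter on low counts. Divided by exon length, the mean level over the 6 libraries was highest for TOP2A, the topoisomerase that untangles sister chromatids (107 CPM per kb), and for TPX2, which activates Aurora A on the spindle (101 CPM per kb). ANLN, the anillin of the contractile ring, had 80.5 CPM per kb and CCNB1 78.4. The lowest were ESPL1, the separase that cuts cohesin (5.36 CPM per kb), CDC25C, a phosphatase that activates CDK1 (7.12), and the centrosomal kinase NEK2 (7.52). MKI67, the Ki-67 antigen used to score proliferation in tumours, stood 18th with 32.5 CPM per kb. Together the 50 genes summed to 7541 to 8520 CPM in the untreated libraries and 7220 to 7772 CPM in the relaxin-2 libraries. Their sum was highest in untreated replicate 2 and lowest in relaxin-2 replicate 2, and the groups overlapped.

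The question put to these genes was whether their mRNA levels differed after 8 hours of relaxin-2. None of the 50 genes passed edgeR's quasi-likelihood test (two-sided, Benjamini-Hochberg adjusted p over all genes tested; smallest among the 50 = 0.408), and 0.0% of all 16740 genes tested did. Without the filter 0.37% of the 32407 genes then tested passed. With the replicate number as a block 0.00597% of 16740 passed, and 1.48% with that block and removal of GC and length trends. When untreated replicate 2 was left out 0.0179% of 16794 passed, and 0.0178% of 16889 when both libraries numbered 2 were. None of the 50 genes was among those that passed. The fitted log2 fold change was below 0 for 38 genes and above 0 for 12, against 52.2% and 47.8% of all genes. It ran from -0.30 in CENPK to 0.50 in INCENP with a median of -0.10, and the median over all genes was -0.01. Without untreated replicate 2 the median of the 50 was -0.03, and 45 of the 50 genes had a value over 1.5 times smaller or of the other sign (6 of them the latter). In edgeR 4 genes had an unadjusted p under 0.05 (8%, against 10.8% of all genes, which was 1811 genes, with 10.0% in DESeq2 and 12.3% in limma-voom). INCENP and PLK1 were higher (6.3% of all genes) and CENPK and NUF2 lower (4.52%). The groups did not overlap for 6 genes (12%, against 21.4% of all genes), with INCENP, PLK1, AURKB and UBE2C higher (8%, against 10.8%) and CCNB1 and MAD2L1 lower (4%, against 10.5%). Neither the 4 nor the 6 was above its background, while the share of genes with a value below 0 was. That share turned round when the GC and length trends of each library were removed, to 40 genes above 0 and 10 below, against 52.3% and 47.7% of all genes. The count of 6 depended on single libraries: it was 33 without relaxin-2 replicate 1 (46.8% of all genes), 24 without untreated replicate 4 (43.6%) and 13 without untreated replicate 3 (29.6%). It was 6 without untreated replicate 2 (26.6%), relaxin-2 replicate 2 (25.7%) or relaxin-2 replicate 3 (27.4%). With both libraries numbered 2 left out it was 10 (34.2%). Each share is of the genes tested in that setting. Only without relaxin-2 replicate 1 or untreated replicate 4 was the count, out of 50, above the share of all genes.

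These genes had smaller errors than the typical gene. They also had higher levels, with a median of 106 CPM against 15.0 CPM over all genes, and the part of level in the errors was not tested. The standard error of a log2 fold change had a median of 0.10 over the 50 genes and 0.16 over all genes. For 43 of the 50 genes (86%, against 52.9% of all genes) the 95% interval lay wholly within a 1.5-fold change in either direction. The other 7 were CDC25B, PLK1, AURKB, INCENP, CDC20 and ESPL1, whose intervals reached past 1.5-fold on the higher side, and CENPK, whose interval reached past it on the lower side. Between replicates the coefficient of variation of a gene had a median of 10.7% in the untreated and 5.58% in the relaxin-2 group.

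**Figure D1:**
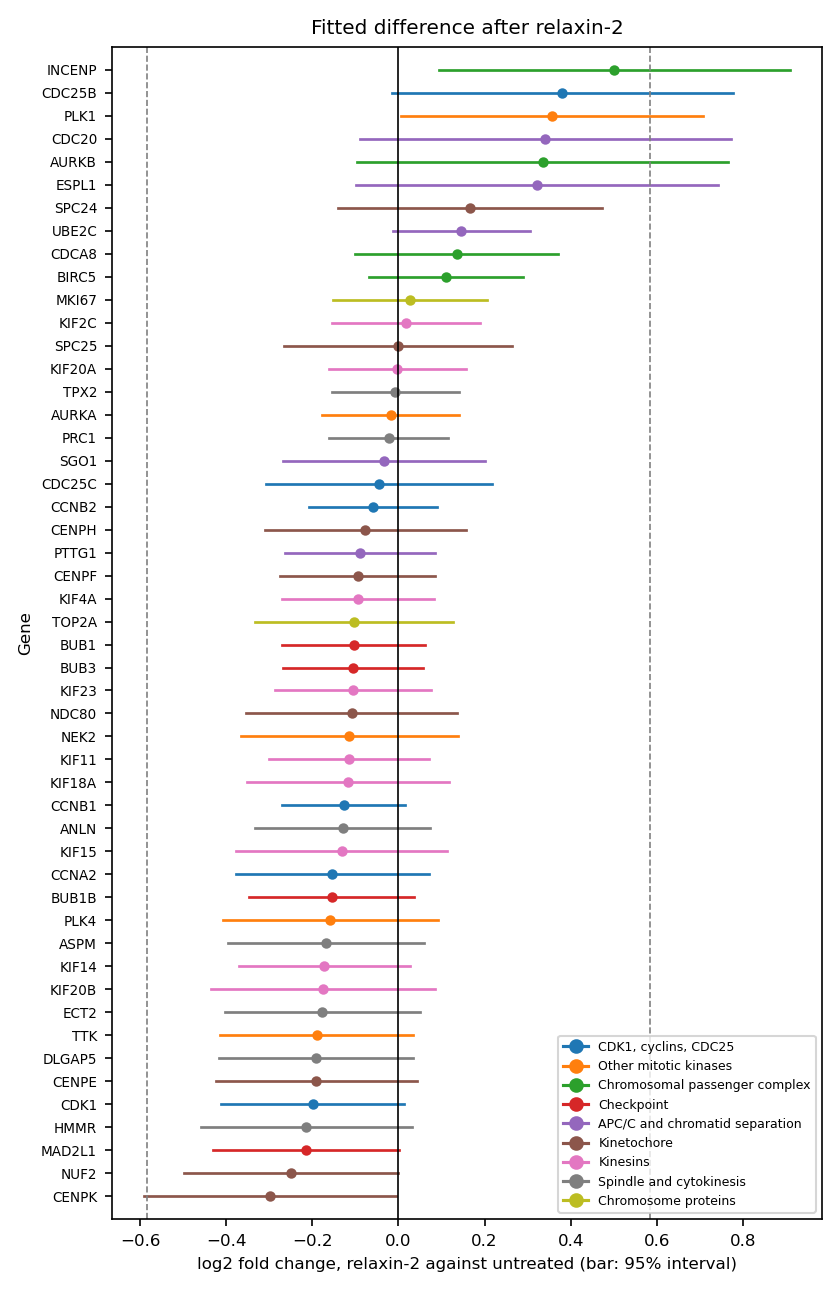
Fitted log2 fold change of each of the 50 genes after relaxin-2 (points, coloured by role) with its 95% interval (bars); dashed lines stand at 1.5-fold in either direction. The values run from -0.30 (CENPK) to 0.50 (INCENP), and 43 intervals lie between the dashed lines.

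CDK1 and its activators showed no change past the test. CDK1, the kinase that starts mitosis (chromosome 10, 60778331 to 60794852, GRCh38), had 263, 230 and 210 CPM in untreated replicates 2, 3 and 4 and 214, 191 and 208 CPM in relaxin-2 replicates 1, 2 and 3. Untreated replicate 2 was the highest, and untreated replicate 4 lay among the treated libraries. The log2 fold change was -0.20 ± 0.09 (SE) and -0.11 without untreated replicate 2. CCNB1, cyclin B1 and the main mitotic partner of CDK1 (chromosome 5, 69167010 to 69178245), had 219, 203 and 206 CPM untreated and 195, 186 and 194 CPM treated. All 3 treated libraries were lower, by a log2 fold change of -0.13 ± 0.06, which did not pass (edgeR adjusted p = 0.408). Without untreated replicate 2 the value was -0.09. CCNA2, cyclin A2, was at -0.15 ± 0.10 and CCNB2, cyclin B2, at -0.06 ± 0.06. The phosphatases that remove the inhibitory marks from CDK1 differed in sign. CDC25B (chromosome 20, 3786772 to 3806121) had 36.8, 52.9 and 59.8 CPM untreated and 58.0, 71.3 and 65.4 CPM treated, a log2 fold change of 0.38 ± 0.17 that was 0.20 without untreated replicate 2. CDC25C was at -0.05 ± 0.11.

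Among the other mitotic kinases PLK1, the Polo kinase of centrosome maturation and mitotic entry (chromosome 16, 23677656 to 23690367), had 24.9, 34.0 and 37.3 CPM in the untreated and 37.7, 41.8 and 43.5 CPM in the relaxin-2 libraries. The groups did not overlap, and untreated replicate 4 and relaxin-2 replicate 1 were nearly equal. Its log2 fold change was 0.36 ± 0.15 (unadjusted p = 0.0470 and adjusted p = 0.408 in edgeR) and 0.20 without untreated replicate 2. TTK, the kinase MPS1 that starts checkpoint signalling (chromosome 6, 80003887 to 80042527), lay the other way, with 274, 235 and 222 CPM untreated and 233, 200 and 208 CPM treated (-0.19 ± 0.10). The groups overlapped, and the value was -0.10 without untreated replicate 2. PLK4, which licenses centriole duplication, was at -0.16 ± 0.11, NEK2 at -0.11 ± 0.11 and AURKA, the spindle pole Aurora kinase, at -0.02 ± 0.07, with all their groups overlapping.

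The 4 subunits of the chromosomal passenger complex, which corrects faulty attachments at centromeres and then guides cytokinesis, all had fold changes above 0, and none passed. INCENP, its scaffold (chromosome 11, 62123973 to 62153163), had 29.2, 44.8 and 45.8 CPM untreated and 50.1, 63.2 and 56.3 CPM treated. Every treated library was above every untreated one, and the widest gap within a group was between untreated replicate 2 and the other two. Its log2 fold change of 0.50 ± 0.18 was the largest of the 50 genes (edgeR unadjusted p = 0.0218, adjusted p = 0.408), and without untreated replicate 2 it was 0.31. AURKB, the catalytic subunit, had 23.2, 37.9 and 39.7 CPM untreated and 42.0, 42.3 and 42.7 CPM treated (0.33 ± 0.19), and 0.13 without untreated replicate 2. CDCA8, borealin, was at 0.14 ± 0.10 and BIRC5, survivin, at 0.11 ± 0.08.

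All 4 checkpoint genes had fold changes below 0, without passing. MAD2L1, whose product binds CDC20 to restrain the APC/C (chromosome 4, 120055608 to 120067074), had 180, 147 and 150 CPM untreated and 145, 130 and 136 CPM treated. The treated libraries were all lower, with relaxin-2 replicate 1 just under untreated replicate 3, and the log2 fold change was -0.22 ± 0.09 (edgeR unadjusted p = 0.05004, adjusted p = 0.408) and -0.12 without untreated replicate 2. BUB1B, which makes BUBR1, was at -0.16 ± 0.08, BUB3, its partner, at -0.11 ± 0.07 and the kinase BUB1 at -0.10 ± 0.07. Exons of BUB1B overlap those of the readthrough gene BUB1B-PAK6 on the same strand, so its reads can be lost as ambiguous and its level is uncertain. No other of the 50 genes shared exons with a gene on its own strand in GENCODE release 29.

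Of the genes that release sister chromatids, UBE2C, the ubiquitin-conjugating enzyme of the APC/C (chromosome 20, 45812576 to 45816957), had 77.8, 83.0 and 80.0 CPM untreated and 93.4, 85.9 and 87.1 CPM treated. The treated libraries were all higher, by a log2 fold change of 0.15 ± 0.07 (edgeR adjusted p = 0.408). Here untreated replicate 2 did not stand apart, and the value without it was 0.12. CDC20, the APC/C activator held by the checkpoint, had 57.4, 92.6 and 96.3 CPM untreated and 91.1, 110 and 111 CPM treated (0.34 ± 0.19), with 0.14 when untreated replicate 2 was left out. ESPL1 had a log2 fold change much like that of CDC20, at 0.32 ± 0.18 and 0.14 without that library. PTTG1, the securin that blocks separase (chromosome 5, 160421822 to 160428744), had 104, 94.1 and 95.2 CPM untreated and 96.7, 92.4 and 86.5 CPM treated (-0.09 ± 0.08, and -0.04 without untreated replicate 2), with overlapping groups. SGO1, shugoshin, which protects centromeric cohesin, was at -0.03 ± 0.10. PTTG1 has a near-identical retrocopy, PTTG2, and reads that map to several places are not in these counts, so its level is uncertain.

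In the kinetochore 7 of 8 genes had fold changes below 0. CENPK, a subunit of the constitutive inner kinetochore (chromosome 5, 65517766 to 65563171), had 54.1, 47.1 and 43.3 CPM untreated and 45.2, 35.5 and 36.7 CPM treated. Relaxin-2 replicate 1 lay between the untreated libraries, and the log2 fold change was -0.30 ± 0.13 (edgeR unadjusted p = 0.0460, adjusted p = 0.408). Without untreated replicate 2 the value for CENPK was -0.21. NUF2, of the NDC80 complex that grips microtubules (chromosome 1, 163266576 to 163355764), had 63.3, 56.7 and 50.6 CPM untreated and 51.9, 43.9 and 47.5 CPM treated, a log2 fold change of -0.25 ± 0.11 (edgeR unadjusted p = 0.0485, adjusted p = 0.408). Its groups overlapped through untreated replicate 4 and relaxin-2 replicate 1, and the value was -0.17 without untreated replicate 2. The fitted values of the subunits of this 1 complex differed in sign, and none passed the test. SPC24 (chromosome 19, 11131520 to 11155808) had 28.4, 38.5 and 39.0 CPM untreated and 37.5, 40.4 and 40.9 CPM treated (0.17 ± 0.13), and 0.03 without untreated replicate 2. NDC80 was at -0.11 ± 0.11 and SPC25 at -0.0011 ± 0.12. The kinesin CENPE, which carries chromosomes to the metaphase plate, was at -0.19 ± 0.10, CENPF at -0.09 ± 0.08 and CENPH at -0.08 ± 0.10.

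The 9 kinesins, the motors of the spindle, held 8 values below 0 and 1 above, and for all 9 the interval lay within 1.5-fold. KIF14, which acts in cytokinesis (chromosome 1, 200551497 to 200620734), had 156, 138 and 129 CPM untreated and 132, 121 and 122 CPM treated, with relaxin-2 replicate 1 above untreated replicate 4 (-0.17 ± 0.09, and -0.09 without untreated replicate 2). KIF2C, the microtubule depolymerase MCAK (chromosome 1, 44739818 to 44767767), had 106, 123 and 112 CPM untreated and 115, 113 and 118 CPM treated, with the treated libraries inside the untreated range (0.02 ± 0.07, and -0.03 without untreated replicate 2). KIF11, the Eg5 motor that pushes the poles apart, was at -0.11 ± 0.08 and KIF18A, which damps chromosome movement, at -0.12 ± 0.10. KIF20B was at -0.18 ± 0.11 and KIF15 at -0.13 ± 0.11. KIF23, of the centralspindlin complex, was at -0.11 ± 0.08, KIF4A, a motor of the spindle midzone, at -0.09 ± 0.08 and KIF20A, another cytokinetic motor, at -0.0028 ± 0.07. KIF4A has a near-identical retrogene, KIF4B, so its counts are uncertain in the way those of PTTG1 are.

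Spindle assembly and cytokinesis genes were below 0 in 7 of 7 cases, none past the test and all with intervals within 1.5-fold. HMMR, a spindle pole and hyaluronan-binding protein (chromosome 5, 163460203 to 163491945), had 118, 104 and 93.6 CPM untreated and 99.3, 82.2 and 90.2 CPM treated, with overlapping groups (-0.21 ± 0.11, and -0.12 without untreated replicate 2). DLGAP5 (HURP, a spindle stabiliser) was at -0.19 ± 0.10, ECT2, the exchange factor that starts furrowing, at -0.18 ± 0.10 and ASPM, a spindle pole protein, at -0.17 ± 0.10. ANLN was at -0.13 ± 0.09, PRC1, which bundles midzone microtubules, at -0.02 ± 0.06 and TPX2 at -0.0070 ± 0.06.

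MKI67 and TOP2A are the usual tissue markers of proliferation, and neither differed past the test. MKI67 (chromosome 10, 128096659 to 128126385) had 399, 450 and 388 CPM in the untreated and 405, 438 and 419 CPM in the relaxin-2 libraries. Its treated libraries lay within the untreated range, and the log2 fold change of 0.03 ± 0.08 had a 95% interval from -0.15 to 0.21 and was 0.0024 without untreated replicate 2. TOP2A (chromosome 17, 40388516 to 40417950) had 812, 672 and 663 CPM untreated and 713, 626 and 660 CPM treated. Untreated replicate 2 was the highest, and without it the log2 fold change of -0.10 ± 0.10 was -0.0027.

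**Figure D2:**
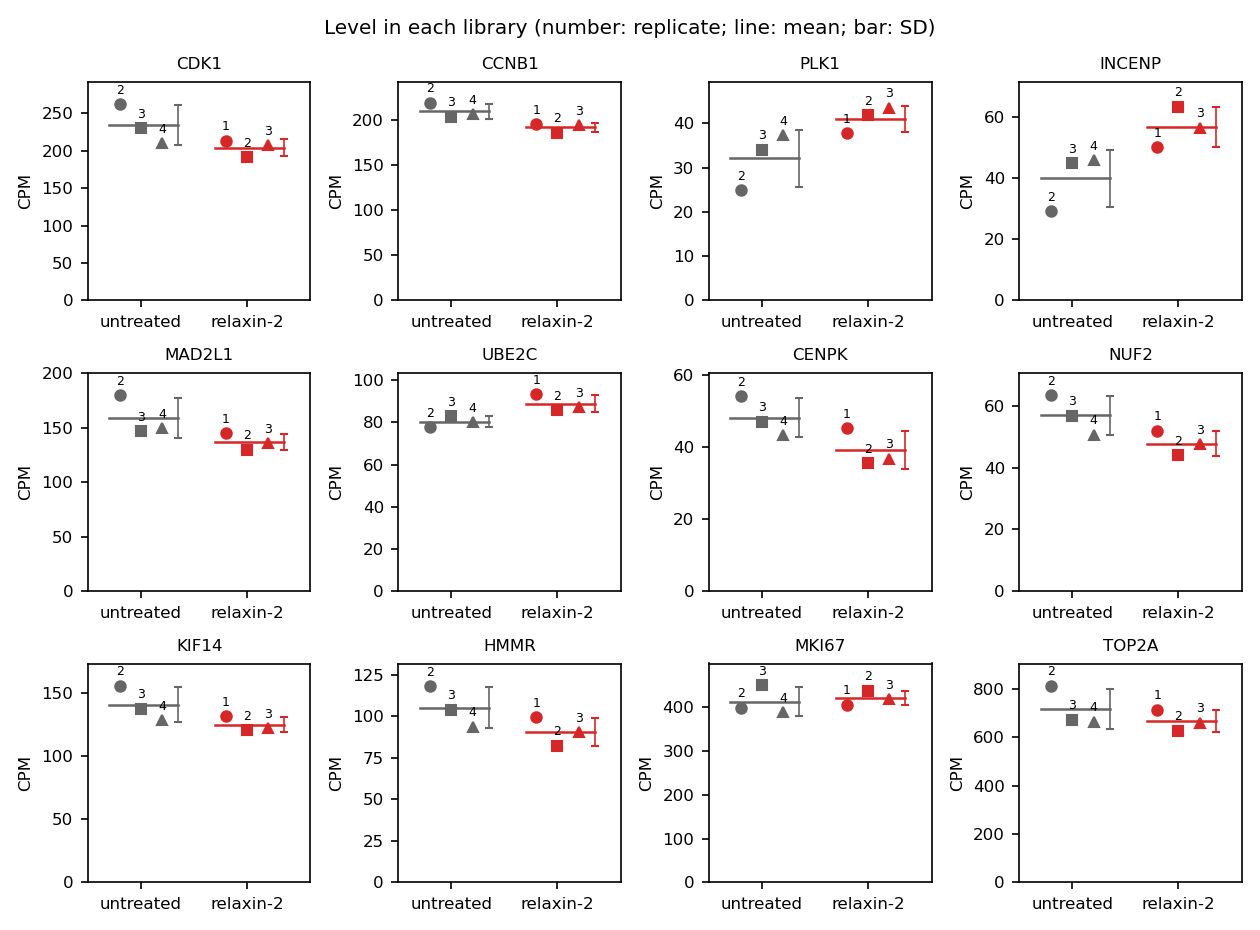
Level of 12 of the genes in each library, in CPM (points, numbered by replicate), with the mean (line) and SD (bar) of each group of 3; every axis starts at 0. Untreated replicate 2 is the highest untreated point in CDK1, CCNB1, MAD2L1, CENPK, NUF2, KIF14, HMMR and TOP2A and the lowest in PLK1, INCENP and UBE2C.

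Across libraries the genes fell into 2 opposite sets, within a group as well as between groups. Of the 50 genes 35 had their highest level in untreated replicate 2, and 29 had their lowest in relaxin-2 replicate 2. In the other set, 11 genes had their lowest level in untreated replicate 2. The sets followed the GC content of the transcripts. Across the 50 genes mean transcript GC content ran from 34.5% (CENPE) to 58.6% (SPC24), and Spearman's rho between GC content and log2 fold change was 0.87 (0.73 over the 16673 tested genes with known GC content). These are correlations across genes of the same 6 libraries, and genes are not independent replicates.

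Of the 12 genes with GC content above the median of all tested genes (48.7%), 11 were higher after relaxin-2, and of the 38 at or below it 37 were lower. Over all tested genes the same split gave 79.0% higher above the median and 83.3% lower at or below it. The exceptions were KIF20A, at -0.0028, and MKI67. The GC-rich set held all 4 chromosomal passenger genes, CDC20, UBE2C, ESPL1, PLK1, CDC25B, SPC24, KIF2C and KIF20A. As log2 CPM minus the gene's own 6-library mean, their median was -0.46 in untreated replicate 2, 0.00085 and 0.06 in untreated replicates 3 and 4, and 0.01, 0.15 and 0.17 in relaxin-2 replicates 1, 2 and 3. For the 38 others the medians were 0.22, 0.02 and -0.04 in the untreated and 0.02, -0.13 and -0.07 in the treated libraries. Untreated replicate 3 and relaxin-2 replicate 1 were thus close to each other in both sets, and untreated replicate 2 stood farthest from the rest.

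**Figure D3:**
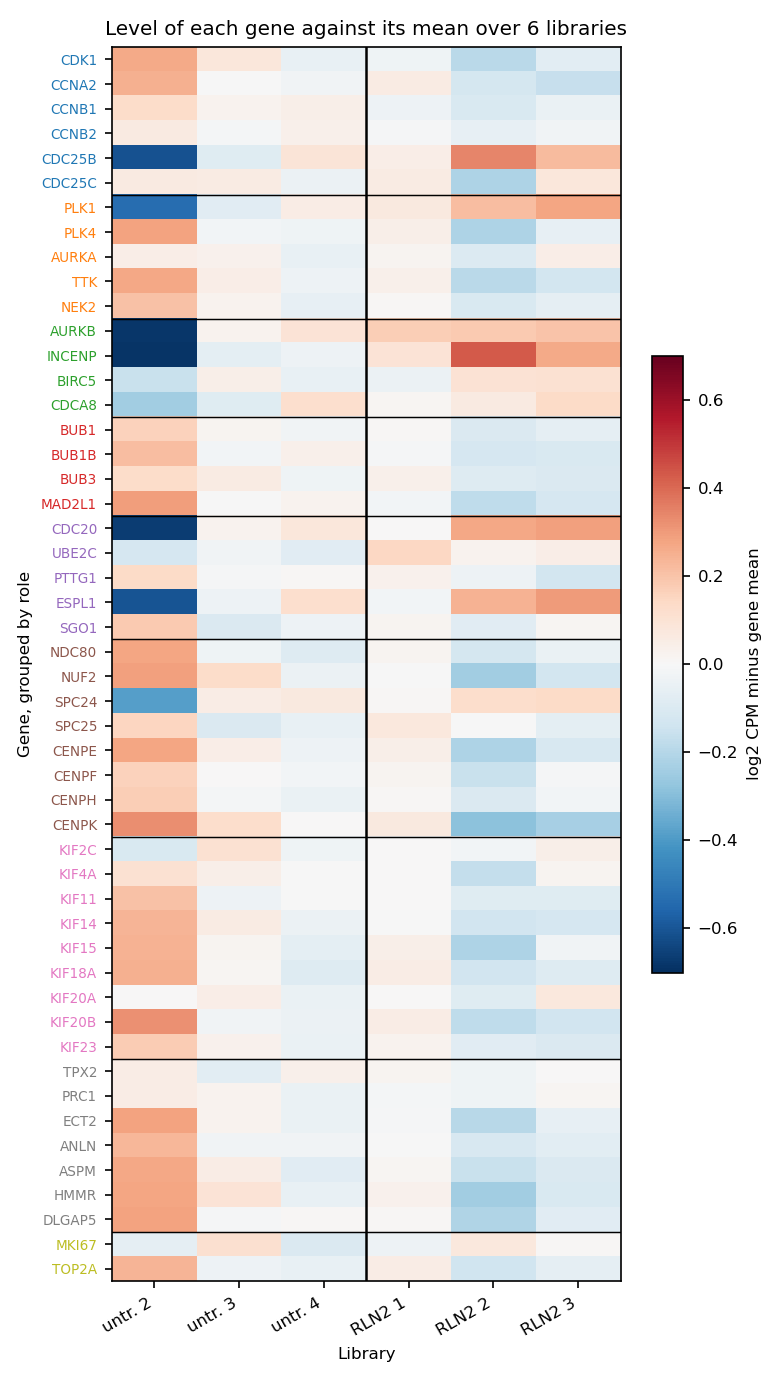
Level of each of the 50 genes in each library as log2 CPM minus the gene's mean over 6 libraries (colour), grouped by role, with untreated libraries (untr.) left of the vertical line and relaxin-2 libraries (RLN2) right of it. Untreated replicate 2 holds the highest value of 35 genes and the lowest of 11, among them INCENP, AURKB, CDC20, ESPL1, CDC25B and PLK1.

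Histone genes were lowest in the same library: by the same measure, the 54 of 71 that passed the filter had a median of -0.91 in untreated replicate 2 and from -0.07 to 0.36 in the other libraries. Their part in the pattern of the mitotic genes was not tested. When each library's smooth trend on transcript GC content and length was removed, the log2 fold changes of the 50 genes ran from -0.19 (SPC24) to 0.19 (INCENP), with a median of 0.04. The median size of a change, sign aside, went from 0.13 to 0.05 (0.17 to 0.10 over all genes), and 30 of the 50 genes changed sign. By role, 6 of 7 spindle assembly and cytokinesis genes, 8 of 9 kinesins and 5 of 8 kinetochore genes were then above 0. So were all 4 chromosomal passenger genes and 1 of 4 checkpoint genes. PLK1 was then at 0.09, CDC25B at 0.10, CDK1 at 0.02, MAD2L1 at -0.03, NUF2 at -0.05 and CENPK at -0.08. INCENP, SGO1 (0.15), SPC25 (0.18) and SPC24 then had an unadjusted p under 0.05, which is 8% of the 50 genes against 10.5% of all genes, and none passed (edgeR, smallest adjusted p = 0.416). By its construction this removal would also take out a treatment effect that itself followed GC content or length.

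**Figure D4:**
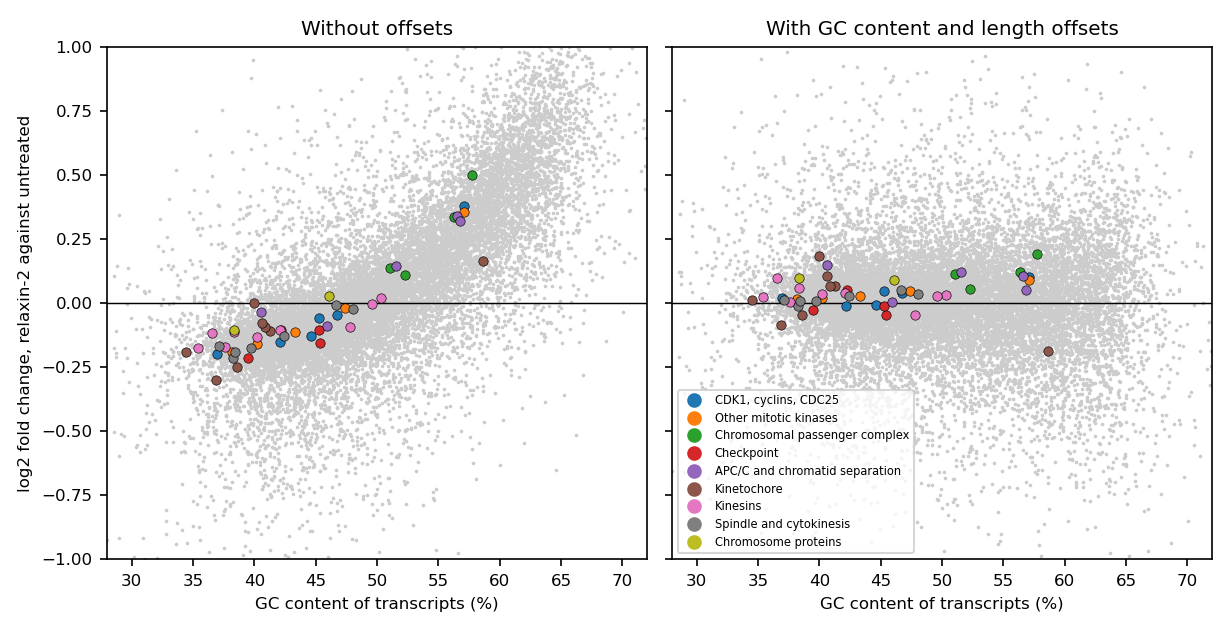
Log2 fold change after relaxin-2 against the mean GC content of a gene's transcripts, for all tested genes (grey; values beyond the axes not drawn) and the 50 mitotic genes (coloured by role), without (left) and with (right) removal of each library's GC and length trend. On the left the 50 genes tend upward with GC content and lie between -0.30 and 0.50, and on the right they lie between -0.19 and 0.19.

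Of a further 113 genes of mitosis and its control 35 were higher and 78 lower, 0 passed (edgeR, smallest adjusted p = 0.408), 14 had an unadjusted p under 0.05 (12.4%, against 10.8% of all genes) and the median log2 fold change was -0.08. The groups did not overlap for 22 of them (19.5%, against 21.4% of all genes). By role, 7 transcriptional regulators were higher and 7 lower, with TFDP1, the dimer partner of the E2F factors, at 0.20 ± 0.08, which was 0.13 without untreated replicate 2. Of 24 APC/C subunits and regulators of mitotic entry 6 were higher, with ANAPC11, the RING subunit of the APC/C, at 0.79 ± 0.25. Of 28 further kinetochore genes 22 were lower, with KNTC1, which makes ROD of the checkpoint complex RZZ, at -0.26 ± 0.07 and at 184 ± 7.51 CPM untreated and 154 ± 7.77 CPM treated (mean ± SD, n = 3 libraries per group). Of 28 further spindle genes 10 were higher, with TACC3, which crosslinks spindle microtubules, at 0.56 ± 0.19. Without untreated replicate 2 TACC3 was at 0.37, ANAPC11 at 0.55 and KNTC1 at -0.23. The 8 condensin genes were 4 higher and 4 lower, with NCAPD2 at 0.20 ± 0.10 (0.12 without untreated replicate 2). Of 11 cohesin genes 9 were lower, with ESCO2, a cohesin acetyltransferase, at -0.19 ± 0.10 (-0.13 without that library). In these 113 genes rho between GC content and log2 fold change was 0.82. With the GC and length trends removed 74 were higher and 39 lower and their median was 0.03, with ANAPC11 at 0.45, TACC3 at 0.23, TFDP1 at 0.03, KNTC1 at -0.09 and ESCO2 at -0.0016.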

How the data were processed

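Total RNA of OVCAR8 cells was isolated with TRIzol and sequenced from strand-specific libraries (TruSeq), per the labels' protocols. The authors deposited gene-level read counts, not normalized, and the submitters' processing notes name STAR and hg38. Which STAR version and annotation were used is not given in the sources used here. Reverse-strand counts were used. They held 17.8 to 19.8 times as many gene reads as the forward strand and equalled the deposited merged table for all 24635 gene IDs with counts there. Lines for unmapped (6.73% to 17.4% of reads), multimapping (5.31% to 27.0%), ambiguous (2.36% to 4.18%) and no-feature reads (17.5% to 32.0%) did not enter library sizes or tests.

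Low counts were removed by filterByExpr, libraries were scaled by TMM, and treatment was tested by the quasi-likelihood F test of edgeR 4.0.16 (R 4.3.3, limma 3.58.1) in 1 fit of all 6 libraries with no other term, with Benjamini-Hochberg adjustment over 16740 genes and a threshold of 0.05. CPM values use the TMM library sizes, and levels per kb use the union of a gene's GENCODE 29 exons. GC content and length were averaged over each gene's transcripts in GENCODE 29, with values for 99.6% of the genes tested. Their trends were fitted as natural splines with 5 degrees of freedom each. The edgeR fit without a block was run on simulated counts, with and without these trends removed. DESeq2, limma-voom and the block fits were not run on them. The genes, the lists and the alternatives were chosen with earlier results of these data known. Values per library are given, by rule, for the gene with the smallest p in each direction in each of 9 roles, for genes with an unadjusted p under 0.05, and for MKI67, TOP2A, CDK1, CCNB1 and PLK1. AURKB and CDC20 were added after their values were seen, as were KIFC1 and NUMA1. The alternatives were DESeq2 1.42.0, limma-voom, other scalings, no filter, unstranded counts, the merged table, GC and length offsets, leaving out libraries, and the replicate number as a block. The block fits draw their fold changes only from libraries whose number occurs in both groups. Figures were drawn with matplotlib 3.10.9.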

Additional observations from a re-analysis of the deposited data

How the results depend on the processing

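None of the 50 genes passed under any of the 17 alternatives. The count over all genes was 0 under DESeq2, limma-voom, 2 other scalings, unstranded counts, the merged table and the GC content and length offsets. It was 120 without a filter on low counts, 1 with the replicate number as a block, 247 with that block and the offsets together, 3 without both libraries numbered 2, and 0 to 3 when 1 library was left out. The groups share 2 replicate numbers, and same-numbered libraries had deviations correlated at -0.326 (number 2) and 0.125 (number 3). Untreated replicates 2 and 3 had correlations from -0.292 to 0.466 with relaxin-2 libraries of another number. Deviations from the mean of only 3 libraries per group cannot decide whether the numbers mark pairs. The numbers were not taken to pair the libraries in the main fit. A number held by 1 group only gives the block no comparison. The fold changes of both block fits therefore rest on the libraries numbered 2 and 3 alone. With the block the median of the 50 went from -0.10 to -0.16. Values were over 1.5 times larger for 38 genes (CDC25B 0.63, CENPK -0.48), and none of the 50 changed sign. What part of this came from the smaller set of libraries was not tested. Of the further 113 mitotic genes 1 passed without the filter (TACC3), against 0.37% of the 32407 genes then tested. With block and offsets 2 of the 113 passed (KIFC1 and NUMA1), against 1.48% of all 16740 genes.

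The median log2 fold change of the 50 genes, -0.10, turned to 0.037 with the offsets, 0.024 with offsets and block and 0.00042 without both libraries numbered 2, and ran from -0.14 to -0.03 when 1 library was left out. That of the 113 turned to 0.029, 0.035 and 0.0044 under the same 3 settings, with a range of -0.12 to -0.02. The Spearman correlation across the 50 genes between GC content and log2 fold change was 0.33 with the offsets, 0.34 with offsets and block, 0.60 without both libraries numbered 2 and 0.72 to 0.89 when 1 library was left out. Groups that do not overlap numbered 10 of the 50 without both libraries numbered 2 (34.2% of all genes). They numbered 6 to 33 of the 50 when 1 library was left out (25.7% to 46.8% of all genes). With all 6 libraries the share of all genes was 21.4%. That count was not taken for DESeq2, limma-voom and the block fits.

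Of the 50 genes 30 changed sign with the offsets, 21 with offsets and block, 17 without both libraries numbered 2 and 6 each without untreated replicate 2 and without relaxin-2 replicate 2. Among the 17 genes chosen by the naming rule, those that did so with the offsets were CDK1 (0.018), KIF14 (0.0023), PTTG1 (0.0048), SPC24 (-0.19), TOP2A (0.097) and TTK (0.017). With offsets and block they were CCNB1 (0.022), CDK1 (0.016), SPC24 (-0.27) and TOP2A (0.095). KIF2C turned to -0.0049 under upper-quartile scaling, and without both libraries numbered 2 KIF2C was -0.0086, MKI67 -0.018 and TOP2A 0.048. With 1 library left out KIF2C ran from -0.030 to 0.077 and MKI67 from -0.013 to 0.094. The cause of these changes of sign was not tested.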
